A study of Mus musculus with 2 samples.

Results

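The collagen genes of the mouse were examined in mammary epithelial cells (MECs) of wild type (WT) and Igfbp7-/- mice on lactation day 3. Members were all genes whose symbol has the form Col, a number, the letter a and a number, which gave 42 of the 25810 genes listed with a symbol. The listed genes Colq and Col4a3bp, whose symbols have another form, were not members. The data are 2 RNA-Seq libraries, 1 per genotype, from the inguinal glands of lactating mice. In the Igfbp7-/- mice the first coding exon of Igfbp7 had been removed by Cre recombinase in embryonic stem cells, so every cell of the animal carried the deletion, and the WT mice carried no engineered allele. The labels give C57BL/6 as the background of both genotypes, whereas the methods state that the knockout was made on CD1. The age of the mice and how many contributed to each library were not given in the sources used here. Magnetic beads had removed leukocytes (CD45), endothelial cells (CD31, written CD35 in the labels) and red cells (Ter119) before RNA extraction. With 1 library per genotype no mean, SD or test between genotypes could be made, and the intervals below describe the sampling of reads only.

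Collagens are secreted or membrane-bound proteins of 3 chains that wind around each other in a triple helix of repeated Gly-X-Y triplets. The fibrillar types build the banded fibers of the mammary stroma, type IV forms the sheet of the basement membrane on which myoepithelial and alveolar cells rest, FACIT collagens (fibril-associated collagens with interrupted triple helices) decorate the fibers, and transmembrane collagens sit in the cell surface. Contact with the basement membrane is needed for milk gene expression, and the sheet is broken down when the gland involutes after weaning.

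The WT library held 34327854 mapped reads and the Igfbp7-/- library 35016847, of which 82.3% and 72.3% fell on listed genes, respectively. The deposited RPM is a read count scaled to this full total, so that a single read equals 0.0291 RPM (WT) or 0.0286 RPM (Igfbp7-/-). Igfbp7 itself dropped from 5224 to 37 reads in the library labelled as its knockout. Listed ribosomal RNA took 2.95% and 3.15% of the mapped reads. Epithelial markers were present in both libraries, but so were markers of cells that the bead step should have removed: Pecam1, which encodes CD31, was measured at 322.5 RPM in WT and 88.9 RPM in Igfbp7-/-.

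Collagen transcripts were less abundant in the Igfbp7-/- library. Summed over all 42 genes, the WT library contained 510618 collagen reads (14875 RPM) and its Igfbp7-/- counterpart 253446 (7238 RPM). The sum in Igfbp7-/- was 48.7% of that in WT, which is -1.04 on the log2 scale (-1.05 to -1.03 as 95% Clopper-Pearson interval). Collagens took 1.49% of the mapped reads in WT (interval 1.48 to 1.49%) and 0.724% in Igfbp7-/- (0.720 to 0.728%). The drop did not rest on the 5 genes with the highest RPM in WT, since the sum of the other 37 genes went from 3587 to 1925 RPM (log2 ratio -0.90). In bulk RNA, fewer cells of a collagen-producing type and less collagen RNA per cell cannot be told apart.

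Ratios of single genes were computed on RPM + 0.1, for genes that reached 1 RPM in either library, and a gene was called lower or higher when the ratio passed 1.5-fold, that is 0.58 on the log2 scale. Of the 42 collagen genes, 34 reached this minimum. Of these, 22 (64.7%) were lower in Igfbp7-/-, against a background of 23.0% among all 14026 genes. Only 3 collagens were higher (Col8a1, Col9a1 and Col11a2), against a background of 21.4%, and 9 stayed within 1.5-fold. The median log2 ratio was -0.83 over the 34 collagens and 0.03 over all genes. The gene closest to the threshold among those called lower was Col27a1, with a log2 ratio of -0.61, and Col12a1, at -0.57, was the nearest gene that was not called. The intervals of several genes called lower or higher, Col11a2 and Col27a1 among them, reach back inside 1.5-fold.

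**Figure D1:**
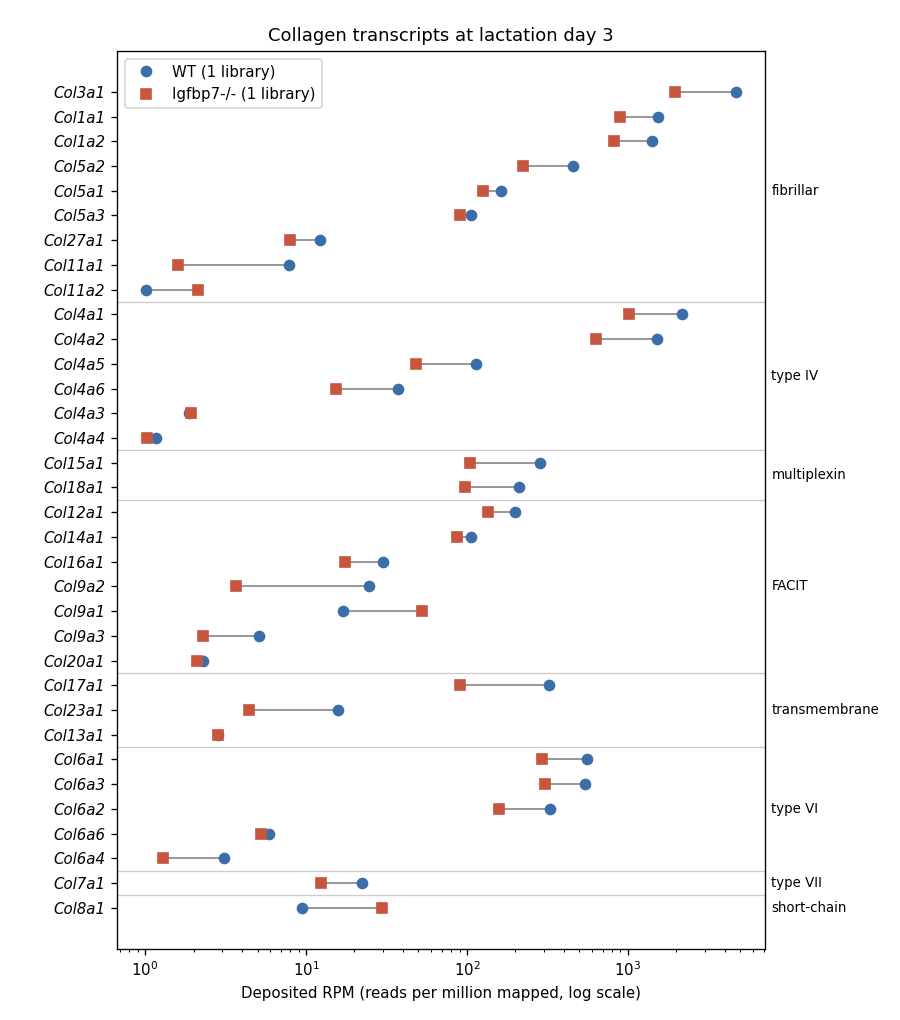
RPM of the 34 collagen genes that reached 1 RPM in either library (log axis), with WT as blue circles and Igfbp7-/- as red squares, 1 library each, grouped by class. Most Igfbp7-/- values lie to the left of the WT value, from Col3a1 (4670 RPM in WT, 1950 RPM in Igfbp7-/-) downwards, whereas Col9a1, Col8a1 and Col11a2 lie to the right.

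**Figure D2:**
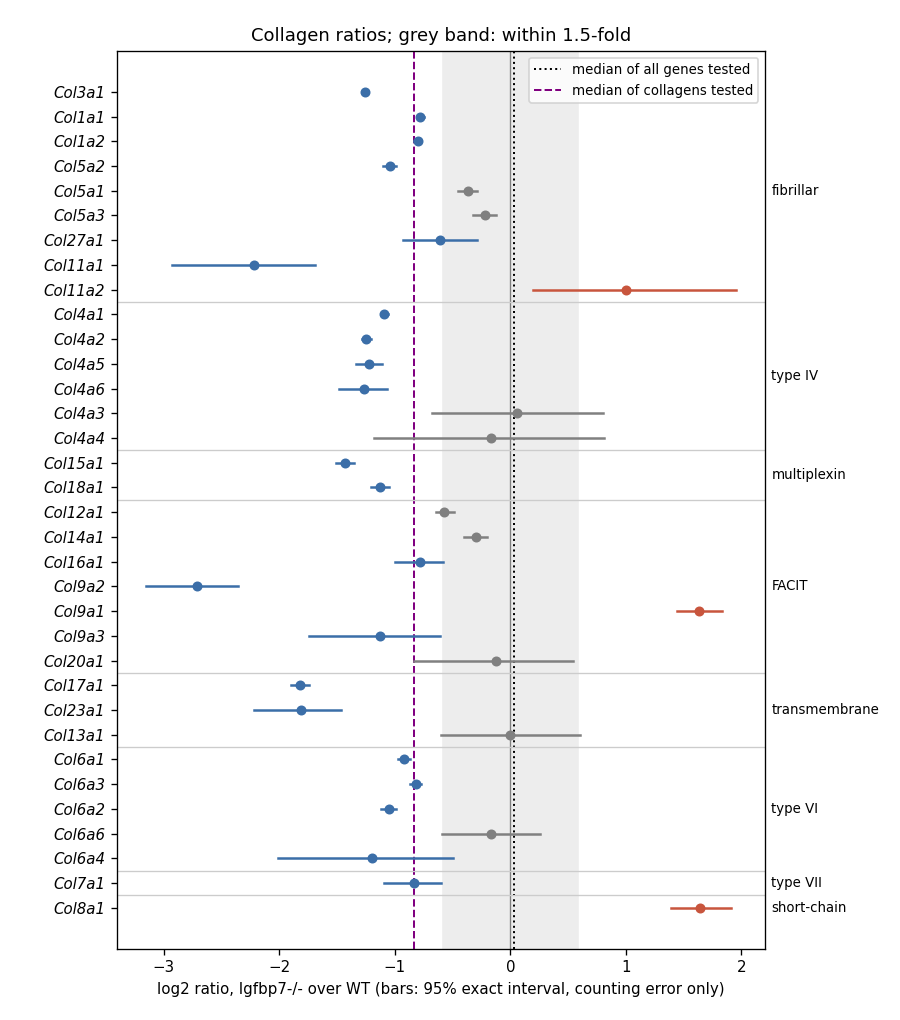
Log2 ratio of Igfbp7-/- to WT for the same 34 genes, with 95% Clopper-Pearson intervals on read pairs (counting error only). Blue marks genes lower by at least 1.5-fold, red marks genes higher by at least 1.5-fold, and the grey band spans 1.5-fold in both directions. The median of the collagens (-0.83, dashed) stands to the left of the median of all genes tested (0.03, dotted).

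The fibrillar class made up most of the collagen RNA, 56.2% of the collagen reads in WT and 56.8% in Igfbp7-/-. Of its 11 genes, 9 reached the minimum, with a median log2 ratio of -0.78. Of these, 6 were lower (66.7%, against 23.0% of all genes) and 1 was higher (against 21.4% of all genes). Col3a1 on chromosome 1 (45368383 to 45406551, plus strand, NCBIM37) encodes the chain of type III collagen, an elastic companion of type I. It had the highest RPM of all collagens, 4670 in WT and 1950 in Igfbp7-/-. That was 2.39-fold lower, a log2 ratio of -1.26 (-1.28 to -1.24), and Col3a1 moved from rank 11 to rank 26 among all genes. Col1a1 and Col1a2 encode the chains of type I collagen, the main load-bearing fiber. Col1a1 (chromosome 11) was measured at 1530 RPM in WT and 893.7 RPM in Igfbp7-/- (log2 ratio -0.78, -0.80 to -0.75). Col1a2 (chromosome 6) followed it closely, with 1416 and 815.2 RPM (-0.80, -0.83 to -0.77). Type III RNA thus fell by more than type I RNA: per length, Col1a1 stood at 0.387 of the level of Col3a1 in WT (0.382 to 0.392) and at 0.541 in Igfbp7-/- (0.531 to 0.552), as ratios of RPKM.

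The bases upstream of Col3a1 and Col1a2 are shown because both fell among the most abundant fibrillar genes. Each stretch covers the 250 bases before the annotated start in RefSeq (GRCm38.p6), and capitals mark matches on either strand to CCAAT, to TATAAA or to GGGCGG, which are the core letters of the CCAAT box, the TATA box and the GC box. In Col3a1 (chr1:45311288-45311537, plus strand) the only match is a TATAAA that begins 117 bases before the start, while Col1a2 (chr6:4505368-4505617, plus strand) holds a CCAAT 109 bases and 2 GGGCGG matches 205 and 188 bases before it. No window was given for Col1a1.
Col3a1: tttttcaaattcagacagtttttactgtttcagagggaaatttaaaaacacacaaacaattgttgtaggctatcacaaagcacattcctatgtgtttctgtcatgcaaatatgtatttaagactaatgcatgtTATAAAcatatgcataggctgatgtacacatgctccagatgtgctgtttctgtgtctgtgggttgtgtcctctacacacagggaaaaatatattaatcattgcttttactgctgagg
Col1a2: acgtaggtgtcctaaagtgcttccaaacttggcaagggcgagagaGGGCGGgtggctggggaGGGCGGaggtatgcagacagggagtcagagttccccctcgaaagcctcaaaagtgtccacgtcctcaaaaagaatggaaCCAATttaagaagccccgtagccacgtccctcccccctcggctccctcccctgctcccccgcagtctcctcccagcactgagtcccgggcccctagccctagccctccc

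Type V collagen, which starts fibrils and sets their width, did not move as a unit. Col5a2 fell from 457.3 to 222.1 RPM (log2 ratio -1.04, -1.10 to -0.99). Col5a1 was measured at 164.0 and 126.5 RPM (-0.37, -0.45 to -0.29) and Col5a3 at 105.9 and 90.96 RPM (-0.22, -0.32 to -0.12), both within 1.5-fold. Relative to Col5a2, the RPKM of Col5a1 was 0.282 in WT and 0.448 in Igfbp7-/-, with intervals that did not overlap (0.270 to 0.294 and 0.425 to 0.472). The weakly expressed fibrillar genes moved in both directions. Col11a1, a chain of type XI collagen known from cartilage, was covered by 268 reads in WT but by 56 in the knockout (7.81 and 1.60 RPM), giving a log2 ratio of -2.22 (-2.93 to -1.69). Its partner chain gene Col11a2 went the other way, from 35 to 75 reads (1.02 and 2.14 RPM), giving a log2 ratio of 1.0 (0.20 to 1.95). Col27a1, whose product forms thin fibrils, was at 12.2 and 7.97 RPM (-0.61, -0.93 to -0.29).

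The type IV genes fell together where they were well expressed. Of the 6 genes, 4 were lower (66.7%, against 23.0% of all genes) and 2 stayed within 1.5-fold. The class sum went from 3826 to 1720 RPM (45.0% of WT, log2 ratio -1.15, -1.17 to -1.13). Col4a1 and Col4a2, which supply the chains of the network found in nearly all basement membranes, were measured at 2161 and 1511 RPM in WT. In Igfbp7-/- they were at 1016 and 637.4 RPM, log2 ratios of -1.09 (-1.11 to -1.06) and -1.25 (-1.28 to -1.21). Col4a5 and Col4a6, whose chains assemble in the basement membranes of smooth muscle and skin, fell by nearly the same factor. Col4a5 went from 113.5 to 48.6 RPM (-1.22, -1.34 to -1.11) and Col4a6 from 37.4 to 15.4 RPM (-1.27, -1.48 to -1.07). Col4a3 and Col4a4, known from the kidney filter, were near the minimum and did not pass 1.5-fold. Col4a3 had 64 and 68 reads (log2 ratio 0.06, -0.68 to 0.80) and Col4a4 had 40 and 36 reads (-0.17, -1.18 to 0.81), so that none of the falls of the other 4 genes lay inside the interval of Col4a3, whereas that of Col4a1 lay inside the interval of Col4a4.

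Type IV genes are arranged in head-to-head pairs, and the paired genes had similar ratios. In NCBIM37 Col4a1 (chromosome 8, 11198423 to 11312826, minus strand) and Col4a2 (11312805 to 11449287, plus strand) overlap by 22 bases at their starts, and reads in that overlap cannot be assigned with certainty without strand. Col4a4 and Col4a3 lie 71 bases apart on chromosome 1, and Col4a6 and Col4a5 lie 1308 bases apart on chromosome X. Both members of the Col4a1 and Col4a2 pair fell by 1.09 and 1.25 on the log2 scale, and those of the Col4a6 and Col4a5 pair fell by 1.27 and 1.22. The stretch of 30 bases shown here (chr8:11312761-11312790, plus strand, GRCm38.p6, from RefSeq) holds the CCAAT letters, in capitals, that begin 32 bases before the annotated Col4a2 start and lie inside Col4a1, 53 bases from its start.
Col4a1 and Col4a2: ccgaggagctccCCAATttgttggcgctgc

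The multiplexins, large collagens with sugar chains that sit where the basement membrane meets the stroma, were both lower. Col15a1 fell from 283.2 to 105.1 RPM (log2 ratio -1.43, -1.51 to -1.35). Col18a1, the precursor of the angiogenesis inhibitor endostatin, fell from 212.0 to 96.8 RPM (-1.13, -1.21 to -1.05). The single type VII gene, Col7a1, encodes the anchoring fibril that ties the basement membrane to the stroma and fell from 22.2 to 12.4 RPM (-0.83, -1.09 to -0.60).

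Within the FACIT class the genes diverged most. Of 9 genes, 7 reached the minimum. Of these, 3 were lower (42.9%, against 23.0% of all genes), 1 was higher (against 21.4% of all genes) and 3 stayed within 1.5-fold. For a class of 7 genes these counts are near the shares of all genes. The class median was -0.57, and its sum of 384.6 RPM in WT and 299.4 RPM in Igfbp7-/- differed by less than that of the fibrillar class (log2 ratio -0.36, -0.41 to -0.31). Col12a1, which links type I fibers, was at 199.5 and 134.7 RPM (-0.57, -0.64 to -0.49), just short of the threshold. Col14a1, a related fibril-associated chain, was at 106.2 and 86.2 RPM (-0.30, -0.40 to -0.20). Col16a1, which occurs near basement membranes, fell from 29.9 to 17.4 RPM (-0.78, -1.0 to -0.58). Col20a1 had 79 and 74 reads (-0.12, -0.83 to 0.54).

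The 3 chains of type IX collagen, best known as a partner of type II fibrils in cartilage, went in opposite directions. Col9a1 (chromosome 1, 24184449 to 24259577, plus strand, NCBIM37) rose from 586 to 1854 reads, or 17.1 to 52.9 RPM, giving a log2 ratio of 1.63 (1.44 to 1.83). Col9a2 (chromosome 4) fell from 842 to 128 reads, or 24.5 to 3.66 RPM, and its log2 ratio of -2.71 (-3.15 to -2.36) was the lowest of the 34 collagens. Col9a3 (chromosome 2) fell from 176 to 80 reads (-1.13, -1.74 to -0.61). Inside the WT library Col9a1 stood at 0.492 of the RPKM of Col9a2 (0.422 to 0.572), and inside the Igfbp7-/- library at 10.2 times that level (7.94 to 13.4). Against Col9a3 the RPKM ratio of Col9a1 was 2.44 in WT and 17.0 in Igfbp7-/-. These comparisons inside a library do not depend on how the libraries were scaled to each other. The tail-to-tail neighbour of Col9a1 at a distance of 9151 bases, Col19a1, had 0 and 6 reads, and type II collagen itself (Col2a1) had 2 reads in each library.

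**Figure D3:**
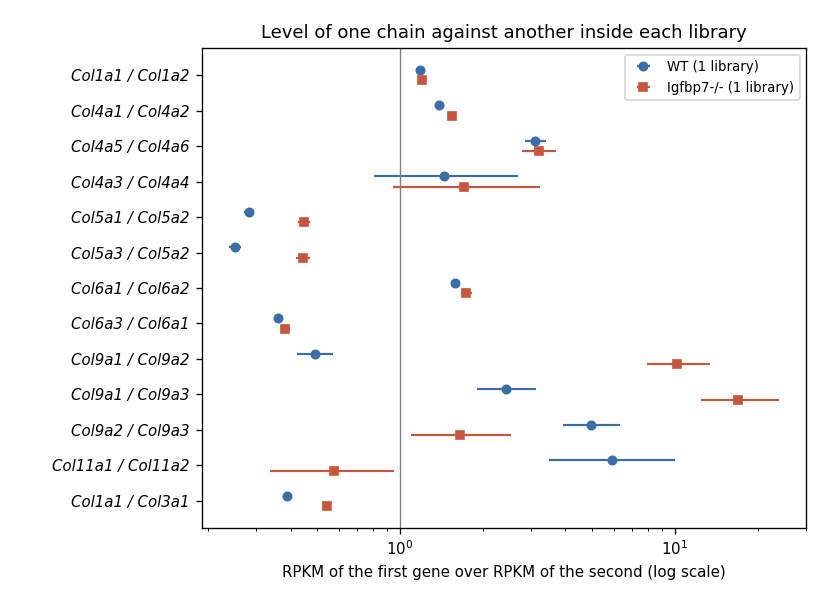
RPKM of one collagen gene divided by that of another inside the same library (log axis), for chains that share a trimer and for Col1a1 against Col3a1, with 95% Clopper-Pearson intervals on read pairs. Col1a1 to Col1a2 is 1.18 in WT and 1.2 in Igfbp7-/-, whereas Col9a1 to Col9a2 is 0.492 in WT and 10.2 in Igfbp7-/-, and Col11a1 to Col11a2 is 5.90 and 0.575.

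Of the transmembrane collagens, 3 of 4 reached the minimum, and 2 of them were lower (66.7%, against 23.0% of all genes). Col17a1 (chromosome 19, 47720834 to 47766584, minus strand, NCBIM37) encodes the collagen of the hemidesmosome, the junction that fixes basal cells to the basement membrane. It fell from 11061 to 3191 reads, or 322.2 to 91.1 RPM, and its log2 ratio of -1.82 (-1.90 to -1.74) was the lowest among collagens above 100 RPM in WT. Col23a1, a shed cell surface collagen, fell by a similar factor, from 15.7 to 4.40 RPM (-1.81, -2.22 to -1.47). Col13a1, found at cell junctions and at the nerve-muscle synapse, had 97 and 99 reads (0.00, -0.60 to 0.60), so a fall like that of Col17a1 was outside its interval.

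Type VI collagen forms beaded filaments around cells and between fibers. Of its 5 genes listed, 4 were lower (80.0%, against 23.0% of all genes) and none was higher. The class sum fell from 1431 to 763.8 RPM (log2 ratio -0.91, -0.94 to -0.88). Col6a1 fell from 555.4 to 294.2 RPM (-0.92, -0.97 to -0.87), Col6a2 from 327.0 to 157.6 RPM (-1.05, -1.12 to -0.99) and Col6a3 from 539.8 to 305.5 RPM (-0.82, -0.87 to -0.77). These chains, which assemble in equal numbers, shifted little in proportion, although the intervals did not overlap: the RPKM of Col6a1 was 1.59 times that of Col6a2 in WT (1.54 to 1.64) and 1.74 times in Igfbp7-/- (1.67 to 1.83). The alternative chains were weakly expressed. Col6a4 had 106 and 45 reads (-1.2, -2.01 to -0.50) and Col6a6 had 202 and 183 reads (-0.17, -0.59 to 0.26).

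Among the short-chain collagens, which form open lattices in vessel walls and the cornea, Col8a1 was 1 of the 3 collagens that rose. It went from 324 to 1036 reads, or 9.44 to 29.6 RPM, giving a log2 ratio of 1.64 (1.39 to 1.91). Its partner chain Col8a2 had 6 and 20 reads and stayed below 1 RPM. The other genes under the minimum were Col10a1 (17 and 10 reads), Col28a1 (22 and 4), Col24a1 (8 and 4), Col25a1 (4 and 13), Col19a1, Col2a1 and Col22a1, the last with 0 reads in both libraries. At 3 reads, the amount that a count of 0 allows when reads are counted singly, the limit was 0.0874 RPM in WT and 0.0857 RPM in Igfbp7-/-. Counted on read pairs, as for the intervals, the limit would be higher. No ratio is given for these 8 genes.

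The upstream bases of Col17a1, Col9a1 and Col8a1 are shown for contrast, because the first fell and the others rose. The windows are chr19:47692043-47692292 (minus strand), chr1:24177360-24177609 (plus strand, the upstream of 2 annotated starts) and chr16:57754738-57754987 (minus strand) in GRCm38.p6, from RefSeq, with capitals as above. Col17a1 holds 2 TATAAA matches and 1 CCAAT, Col8a1 holds 4 GGGCGG matches on either strand, and this Col9a1 window holds none of the 3 motifs. Windows were given for 34 of the 42 collagens. CCAAT was found upstream of 10 of the 19 lower genes with a window and of 1 of the 3 higher genes, and in 33.8% of all 32851 mouse windows of this length. GGGCGG was found upstream of 13 of the 19 lower and 2 of the 3 higher genes, and in 32.7% of all windows, and TATAAA upstream of 2 and 1 of them, and in 12.4% of all windows. Of the 6 genes within 1.5-fold that had a window, 3 held GGGCGG, 1 held CCAAT and 1 held TATAAA. The collagen windows were richer in G and C than all windows, with medians of 59.2% and 52.4%. Whether any motif goes with the direction of change was not tested. Both strands were searched, matches of different motifs may share letters, and a gene with more than 1 annotated start was counted once. The other Col9a1 window holds a CCAAT 18 bases before its start.
Col17a1: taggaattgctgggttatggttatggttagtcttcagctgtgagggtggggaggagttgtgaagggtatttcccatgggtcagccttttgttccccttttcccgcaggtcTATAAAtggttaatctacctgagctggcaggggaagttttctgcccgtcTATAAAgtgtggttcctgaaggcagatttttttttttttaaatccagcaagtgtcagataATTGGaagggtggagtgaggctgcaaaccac
Col9a1: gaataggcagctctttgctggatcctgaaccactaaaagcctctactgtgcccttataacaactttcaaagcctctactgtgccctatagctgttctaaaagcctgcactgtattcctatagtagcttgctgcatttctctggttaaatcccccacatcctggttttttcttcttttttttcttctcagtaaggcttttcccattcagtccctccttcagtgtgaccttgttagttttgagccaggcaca
Col8a1: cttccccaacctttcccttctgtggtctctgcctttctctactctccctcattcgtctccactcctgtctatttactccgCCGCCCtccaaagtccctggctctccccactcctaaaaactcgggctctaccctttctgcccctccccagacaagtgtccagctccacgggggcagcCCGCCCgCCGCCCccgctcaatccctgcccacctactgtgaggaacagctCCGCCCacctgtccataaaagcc

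Per length, the order of the most abundant collagens changed little between the libraries. By RPKM, Col3a1 was first in both libraries (839.4 in WT, 350.6 in Igfbp7-/-). In WT it was followed by Col4a1 at 325.7 and Col1a1 at 324.8, which were nearly equal, and then by Col1a2 at 275.3 and Col4a2 at 235.1. In Igfbp7-/- the type I genes stood ahead of Col4a1, with Col1a1 at 189.8, Col1a2 at 158.5 and Col4a1 at 153.1. Lower in the order, Col9a1 moved from place 21 to place 15 and Col8a1 from place 24 to place 19, while Col9a2 moved from place 18 to place 23 and Col11a1 from place 27 to place 32. Col1a1 and Col1a2 kept an RPKM ratio of 1.18 in WT (1.16 to 1.2) and 1.2 in Igfbp7-/- (1.17 to 1.22), and Col4a1 to Col4a2 was 1.39 (1.36 to 1.41) and 1.54 (1.51 to 1.58).

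Genes that modify, fold and cut procollagen were described as 3 lists, whose shares of lower genes stand beside the 23.0% of all genes. Of 15 hydroxylases, glycosyltransferases and their partners, 7 were lower (46.7%) and 1 was higher, with a median log2 ratio of -0.54. Plod1 and Plod2, lysyl hydroxylases that prepare collagen for cross-linking, fell from 21.7 to 7.68 RPM (-1.48, -1.79 to -1.2) and from 40.8 to 15.3 RPM (-1.41, -1.62 to -1.21). Crtap, part of the prolyl 3-hydroxylation complex, fell from 16.6 to 9.08 RPM (-0.86, -1.16 to -0.59). The single higher gene, the prolyl hydroxylase subunit P4ha3, had 6 and 46 reads and was named after its values were seen, as were Fkbp7, Adamts3, Adamts14, Tll1, Tnxb, Thbs2, Mrc2, Lair1, Itga10, Lamb3, Hspg2, Lamb1, Pxdn, Fbln1, Krt19, Csn2, Lalba, Adipoq, Cidec, Krt1, Krt10 and Lor below.

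Of 10 folding and export genes, 3 were lower (near the share of all genes) and 7 stayed within 1.5-fold, with a median log2 ratio of -0.16. Serpinh1, which encodes the collagen chaperone HSP47, fell from 297.0 to 165.3 RPM (-0.85, -0.91 to -0.78), and the procollagen foldase gene Fkbp10 fell from 24.1 to 12.97 RPM (-0.89, -1.13 to -0.66), while Fkbp7, a related foldase, was the third lower gene. Of 12 processing and cross-linking genes at the minimum, 5 were lower (41.7%) and none was higher, among them Pcolce, an enhancer of propeptide removal (35.7 and 22.2 RPM; -0.68, -0.87 to -0.50), and the lysyl oxidase relative Loxl3 (25.9 and 15.2 RPM; -0.77, -1.0 to -0.55). Adamts3, Adamts14 and Tll1, proteases that cut procollagen, were the other lower genes. The count of lower genes in this list fell to 2 when scaled to reads on listed genes, where Pcolce was at -0.49, and to 2 with a minimum of 10 RPM. Of 14 proteoglycans and other organizers of fibrils, 8 were lower (57.1%, against 23.0% of all genes) and 2 were higher. Fmod (fibromodulin) fell from 72.4 to 3.71 RPM (-4.25, -4.67 to -3.93), Lum (lumican) from 401.9 to 84.1 RPM (-2.25, -2.34 to -2.17) and Sparc, a collagen-binding matrix protein, from 2976 to 1136 RPM (-1.39, -1.41 to -1.37). Tnxb and Thbs2, matrix proteins that affect fibril spacing and assembly, were the higher genes. The list summed to 60.0% of the WT level, above the 48.7% of the collagens.

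Receptors for collagen showed no common direction. Of 9 genes at the minimum, 3 were lower (33.3%, against 23.0% of all genes) and 3 were higher (against 21.4% of all genes). For a list of 9 genes these counts are near the shares of all genes. The median log2 ratio was -0.13. Itga1, an integrin subunit that binds type IV collagen, fell from 43.0 to 18.9 RPM (-1.18, -1.38 to -1.0). Itga11, an integrin subunit for fibrillar collagen, rose from 15.7 to 29.4 RPM (0.90, 0.69 to 1.13), and Ddr1, a collagen-activated receptor kinase of epithelial cells, rose from 42.1 to 83.4 RPM (0.98, 0.86 to 1.12). The others past 1.5-fold were Mrc2 and Lair1, which were lower, and Itga10, which was higher. Gp6, the platelet receptor, had 0 reads in both libraries.

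The partners of Col17a1 in the hemidesmosome were split. Of 8 genes, 3 were lower (37.5%, against 23.0% of all genes) and 1 was higher. Lama3, which encodes a laminin chain, fell from 404.9 to 75.3 RPM (-2.43, -2.51 to -2.34), and Lamb3, another laminin chain gene, was lower too. The integrin gene Itgb4 rose from 29.9 to 87.9 RPM (1.55, 1.41 to 1.70). Of 10 other basement membrane genes, 5 were lower (50.0%) and 1 was higher, with a sum at 75.8% of WT against 45.0% for type IV. Nid2 (nidogen-2, which links laminin to type IV) fell from 84.3 to 8.94 RPM (-3.22, -3.48 to -3.00) and Lama1 from 25.1 to 11.6 RPM (-1.11, -1.36 to -0.87), Hspg2, Lamb1 and Pxdn were also lower, whereas Lama5, another laminin chain, rose from 134.8 to 462.3 RPM (1.78, 1.71 to 1.85).

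**Figure D4:**
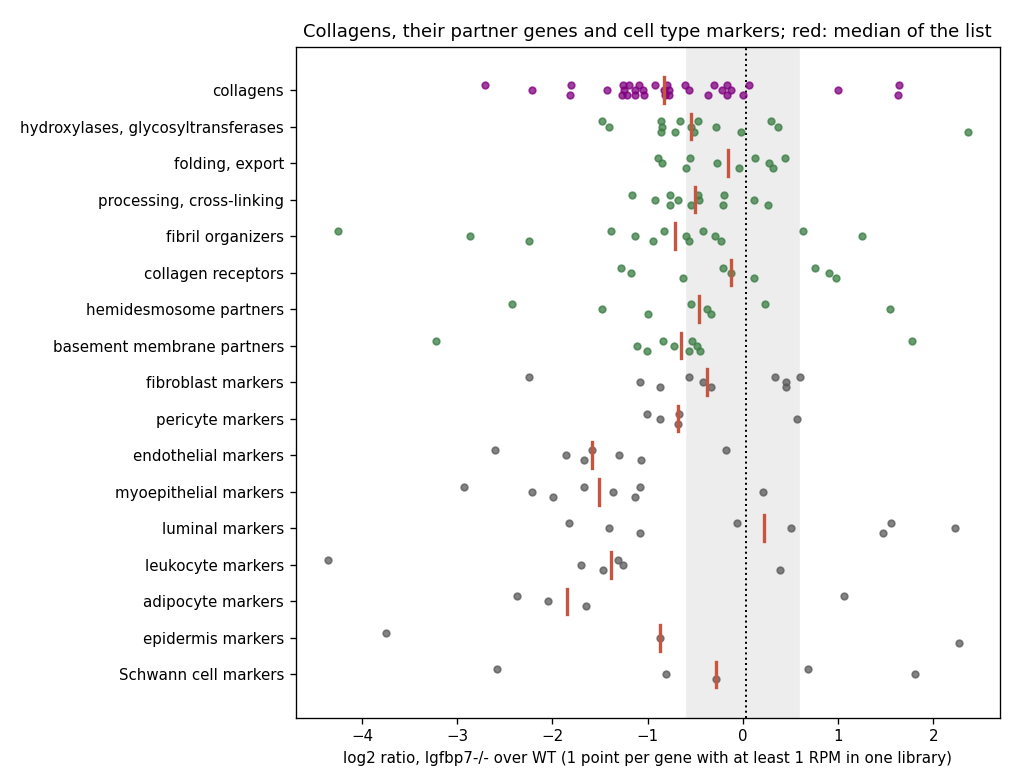
Log2 ratio of Igfbp7-/- to WT for each gene of the collagens (purple), of 7 lists of partner genes (green) and of 9 lists of cell type markers (grey), with the median of each list as a red bar, the median of all genes tested as a dotted line and 1.5-fold as a grey band. The collagen median (-0.83) lies between those of the fibroblast markers (-0.38) and of the myoepithelial (-1.51) and endothelial markers (-1.59). Among the marker lists, the medians of the epidermal (-0.87) and pericyte markers (-0.68) are nearest to it. The epidermal median rests on 3 genes, from -3.75 to 2.27, and is the value of Krt10 (46 and 24 reads).

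Marker lists of the cell types that the samples could hold gave mixed counts. Of 10 fibroblast markers 3 were lower (a share near the 23.0% of all genes) and 1 was higher, the median log2 ratio was -0.38, the list sum went from 2407 to 1583 RPM (65.7% of WT), and no marker was at 0. Lum, Fap (24.2 and 11.4 RPM) and Vim (594.6 and 325.4 RPM) were lower. Fbln1 was higher, a call that was lost with a pseudocount of 1 RPM and with edgeR's TMM factors, and Lum, Dcn and Dpt of this list are also fibril organizers counted above. Pdgfra and Pdgfrb of the fibroblast list, chosen after their values were seen, were at 97.0 and 132.8 RPM and at 50.7 and 64.2 RPM. Their log2 ratios were 0.45 (0.36 to 0.54) and 0.34 (0.21 to 0.47), both within 1.5-fold. With scaling to reads on listed genes, 3 fibroblast markers were higher, where 30.6% of all genes were. Of 5 pericyte markers 4 were lower, among them Rgs5 (71.2 and 35.3 RPM) and Notch3 (27.4 and 17.1 RPM), and the sum was 127.4 and 79.3 RPM. Scaled to reads on listed genes, 2 pericyte markers were lower and Notch3 was at -0.49. Of 7 endothelial markers 6 were lower, with sums of 1260 and 406.4 RPM (32.3% of WT) and the largest falls in Tie1 (83.3 and 13.7 RPM), in Pecam1 as given above and in Cdh5 (583.7 and 183.5 RPM).

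Of all genes, 23.0% were lower and 21.4% were higher, and the counts that follow stand beside these shares. Of 8 myoepithelial markers 7 were lower, with sums of 3284 and 1070 RPM (32.6% of WT). Cnn1 (142.9 and 18.6 RPM), Acta2 (1052 and 226.7 RPM) and Trp63 (66.1 and 16.6 RPM) fell most. Luminal markers were split, with 3 lower and 3 higher of 8: Krt18 (250.4 and 1174 RPM) and Krt8 (268.1 and 789.0 RPM) rose, as did Krt19, and the milk genes Wap (13731 and 3866 RPM), Csn2 and Lalba fell, so that the sum went from 68731 to 27287 RPM. Leukocyte markers were lower in 5 of 6 (171.6 and 68.9 RPM in sum), among them Lyz2 (66.9 and 24.1 RPM), Cd68 (43.8 and 17.6 RPM) and Ptprc (43.5 and 18.1 RPM). Adipocyte markers were lower in 3 of 4 (562.0 and 192.3 RPM). Fabp4 was lower (543.5 and 173.4 RPM) and made up most of the sum in both libraries. Adipoq (192 and 35 reads) and Cidec (157 and 36 reads) were also lower, and Lep was higher (8.04 and 16.9 RPM). Epidermal markers were lower in 2 of 3 and higher in 1 (53.5 and 19.0 RPM over all 6). Krt15, which fell from 48.2 to 3.48 RPM, made up most of the sum in WT. Sbsn, which rose from 2.91 to 14.4 RPM, made up most of it in Igfbp7-/-. The other 4 were sparse: Krt10 had 46 and 24 reads (-0.87, -2.11 to 0.10). Krt1 (18 and 4 reads) and Lor (18 and 10 reads) were below the minimum, and Ivl was at 0 in both libraries. Schwann cell markers were lower in 2 of 5 and higher in 2 (139.4 and 167.8 RPM), with Ngfr (4.60 and 16.3 RPM) and Mbp (70.9 and 113.6 RPM) higher. For lists of 8 and 5 genes, the luminal and Schwann cell counts are near the shares of all genes. The part of the cell mixture in the collagen values was not tested.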

How the data were processed

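Poly(A) RNA of lineage-depleted MECs was sequenced as paired 35 and 75 bp reads on a SOLiD instrument. The authors mapped the reads in GeneSifter v4.0 with a Bowtie pipeline, allowing 3 mismatches, and removed reads of small nuclear, ribosomal and mitochondrial RNA. The submitters' processing notes name mm9, Bowtie 0.12.3 and SAMtools 0.1.15, whereas the methods name a human build. The gene annotation, the treatment of reads with several matches and the use of strand in counting were not given in the sources used here. The authors deposited raw read counts per gene, left blank at 0. The deposited RPM is that count scaled to a fixed total for each library, and the deposited RPKM is RPM per kilobase of a length set by the authors.

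Reads in the 50 rows without a symbol (0.0495% and 0.0670% of listed reads) were left out. Collagens were taken by symbol, placed in classes by hand and found in the mouse annotation of NCBIM37 (the build called mm9), where all 42 lay on the chromosome that the files give. The members and lists were chosen with earlier results of these data known. Every collagen at the minimum is named, and in each of the 16 lists up to 3 genes of at least 10 RPM with the largest change past 1.5-fold. Mia3 was not matched. Some genes that this rule names are not reported here.

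Of low counts (1 to 20 reads), 75.8% in WT and 74.1% in Igfbp7-/- were even, so Clopper-Pearson intervals of single ratios were computed on read pairs (count divided by 2, rounded up), without the added 0.1 RPM. They cover counting error only. No test was made, since each genotype had 1 library. The 11 alternatives, all planned, changed the pseudocount, the minimum, the unit, the scaling (including edgeR 4.0.16 and DESeq2 1.42.0 factors, used without a test) or the threshold. Scripts were tested on simulated data. Python 3.11.15, numpy 2.4.6, scipy 1.17.1, pandas 2.3.3, matplotlib 3.10.9 and R 4.3.3 were used.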

Additional observations from a re-analysis of the deposited data

How the results depend on the processing

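The number of lower collagens was between 15 (ratio of at least 2) and 25 (no minimum), and was 21 to 23 under every other scaling, unit and pseudocount, 22 with a minimum of 1 RPM in both libraries and 19 with a minimum of 10 RPM in either library. The number of higher collagens was 3 under 9 of the alternatives, 2 with the minimum of 10 RPM and 6 without a minimum, where 3 genes below 1 RPM were added. With a ratio of at least 2, Col1a1, Col1a2, Col6a1, Col6a3, Col7a1, Col16a1 and Col27a1 were no longer called. The call of Col27a1 was also lost with a pseudocount of 1 RPM, in RPKM, when scaled to reads on listed genes and without the 20 genes of highest RPM, and those of Col6a4, Col9a3, Col11a1 and Col11a2 were lost with the minimum of 10 RPM, while TMM factors added Col12a1. The summed log2 ratio was -1.06 with edgeR's TMM factors, -0.85 when scaled to reads on listed genes and -0.90 without the 20 genes of highest RPM, a set that includes Col3a1. Scaling to reads on listed genes shifted the median of all genes by 0.19 and the share of lower and higher genes to 18.6% and 30.6%, with the collagen median at -0.64, which was 0.86 below that of all genes, as before. Among the other lists, lower processing genes went from 5 to 2 with the minimum of 10 RPM and with listed-gene scaling, and to 1 with a ratio of at least 2. Lower pericyte markers went from 4 to 2, 2 and 1 under the same alternatives, lower folding genes from 3 to 0 with a ratio of at least 2, and higher fibroblast markers from 1 to 0 with a pseudocount of 1 RPM, TMM factors or a ratio of at least 2 and to 3 with listed-gene scaling. No called gene changed direction under any alternative run. No paired analysis was possible because each genotype had 1 library, and for the same reason no library could be left out. Depth limited the genes with under 100 reads in both libraries, Col4a3, Col4a4, Col11a2, Col13a1 and Col20a1, to intervals over 1 wide on the log2 scale. The intervals of Col6a4, Col9a3 and Col11a1, which were called lower and had under 100 reads in Igfbp7-/- only, were also over 1 wide.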
